A study of Mus musculus with 30 samples.

Results

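The genes described here are 44 genes of the DNA replication machinery, out of 38720 genes in the deposited tables. They were chosen by name, as subunits of the replicative helicase, the factors that load and switch it on, the clamp and its loader, the replicative polymerases, the single-strand binding protein, the enzymes that finish lagging-strand fragments, and enzymes of deoxynucleotide supply. All 44 were found in both deposited tables, and all 44 passed the filter on low values described below. The smallest count of any of them in any library was 32 reads and the largest was 2841.

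Poly(A) RNA was sequenced from retinas of newborn (P0) mouse pups after magnetic beads against CD90 (the Thy1 protein on the cell surface) had split the cells into a retinal ganglion cell (RGC) fraction and a non-RGC fraction of the remaining retinal cells pooled together. The WT pups are labelled C57BL/6, with no Cre. The mutant pups carry Math5Cre and 2 floxed copies of Ezh2, the gene of the H3K27 methyltransferase of Polycomb repressive complex 2, and some of them also carry 1 floxed copy of G9a (Ehmt2), the gene of an H3K9 methyltransferase. The tables name their mutant libraries only as mutant, so whether these libraries carry the floxed G9a copy is unknown, though the design text names only mutants that do. The labels list 18 RNA samples, and the tables cover 9 libraries: 3 from the RGC fraction of WT pups, 3 from that of mutant pups and 3 from the mutant non-RGC fraction. WT non-RGC libraries were not analysed here. Math5 (Atoh7) is active in the progenitors that leave the cell cycle and give rise to ganglion cells and some other early retinal neurons, so Cre acts in that lineage and not in every cell of either fraction.

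Before a cell divides, the origin recognition complex, Cdc6 and Cdt1 load the MCM2-7 helicase onto DNA. Cdc45 and the GINS complex then join the helicase to open the duplex, and polymerases alpha, delta and epsilon copy the strands with the help of the Pcna clamp. Many of these genes are transcribed ahead of S phase by E2F factors. In the newborn retina, progenitor cells are still dividing, while ganglion cells have left the cycle.

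**Figure D1:**
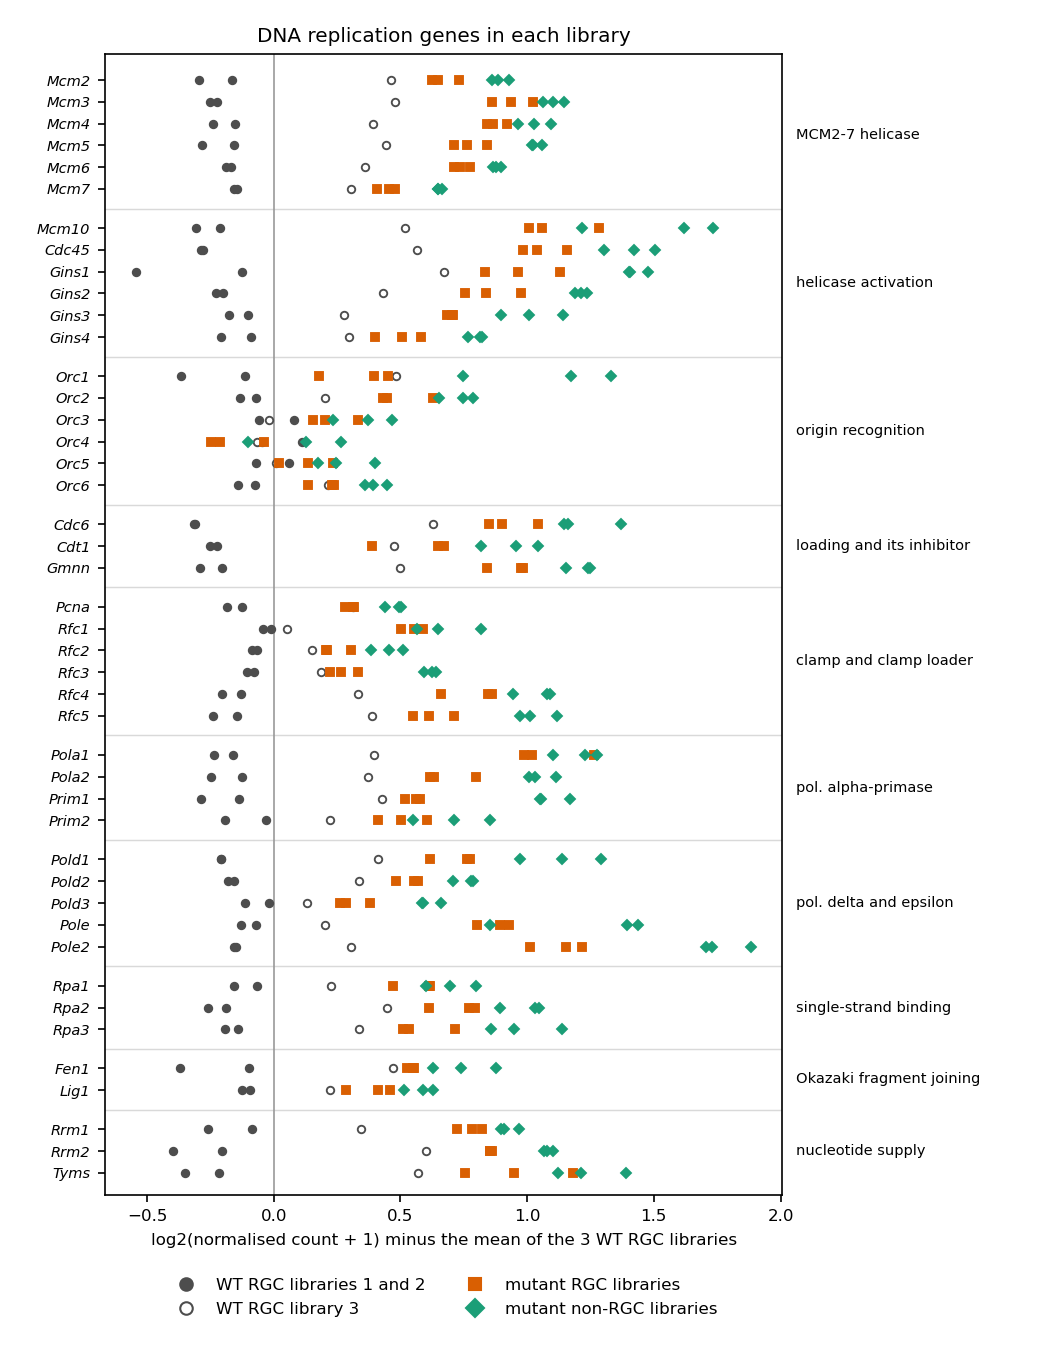
Each point is 1 library, plotted as log2(normalised count + 1) minus the mean of the 3 WT RGC libraries for that gene, with the genes grouped by role. WT library 3 (open circles) is the highest WT library for 41 of 44 genes, and the mutant RGC libraries lie above all WT libraries for 38.

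The libraries held between 10559040 and 12269290 reads assigned to genes, and between 19870 and 21666 genes with a read. Levels are given as normalised counts, which are reads divided by a size factor of the library. They are not divided by transcript length and are not compared between genes. Libraries are numbered within each group by falling size factor, since the tables do not tie them to the sample numbers of the labels. The labels do not say whether each library is from its own animals, so p-values measure only how libraries differ. Ezh2 itself had 1154, 1169 and 1576 normalised counts in WT RGCs and 1962, 1863 and 1811 in mutant RGCs, and its log2 fold change was 0.58 (SE 0.13, limma adjusted p = 0.0292). Ehmt2 (G9a) had 3743, 3603 and 3857 in WT RGCs, 2364, 2799 and 2962 in mutant RGCs and 2985, 3248 and 2747 in mutant non-RGCs, and it fell in mutant RGCs (log2 -0.43, SE 0.11, limma adjusted p = 0.0332). These totals over whole genes check neither a deletion nor the labels, because no counts by exon were used, and no genotype was assigned from them. Thy1, the target of the beads, had 2321, 2442 and 2073 normalised counts in WT RGCs, 964, 1501 and 1425 in mutant RGCs and 209, 351 and 10.3 in mutant non-RGCs.

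The first comparison asks how RNA in the bead-selected RGC fraction differs between mutant and WT retinas. Replication genes were higher in mutant RGCs across almost all roles, and the median log2 fold change over the 44 was 0.68, or 1.60-fold. With limma on log2(normalised count + 1) and Benjamini-Hochberg adjustment over 15277 tested genes, 33 of 44 genes (75%) rose at an adjusted p under 0.05, and 0 fell. Over all tested genes, 13.7% were called higher and 12.3% lower, with a median log2 fold change of 0.00. At an unadjusted p under 0.05, 39 replication genes were higher and 0 lower, against 3456 higher and 3416 lower of all 15277 tested genes. The authors' deposited table called 32 of the 44 higher and 0 lower. It called 1381 of its 25338 genes with an adjusted p higher (5.45%), low genes included. Of these calls, 1374 were among the 15277 genes tested here. Every mutant RGC library lay above every WT library for 38 of the 44 genes, against 23.4% of all tested genes.

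The WT libraries did not hold the same level of these genes. The normalised counts of the 44 genes summed to 23974, 24567 and 34065 in WT libraries 1, 2 and 3, to 41427, 43172 and 41234 in mutant RGCs, and to 50683, 49868 and 48577 in mutant non-RGCs. WT library 3 was the highest WT library for 41 of 44 genes, at a median of 1.44 times the mean of WT libraries 1 and 2. The ratio ran from 0.933 for Orc4, a subunit of the origin recognition complex, to 2.00 for Gins1. The coefficient of variation had a median of 22.6% over the WT libraries, 5.87% over the mutant RGC libraries and 5.07% over the mutant non-RGC libraries. The mean of the mutant RGCs was a median of 1.78 times the mean of WT libraries 1 and 2, and 1.23 times WT library 3. All 3 mutant RGC libraries lay above WT library 3 for 39 genes. These ratios, counts and coefficients of variation were computed for the 44 genes and not over all tested genes. Whether they are particular to the 44 was not tested.

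The calls depended on single libraries, while the directions did not. Without WT library 3, limma called 41 of the 44 genes higher, and Orc1, Orc4 and Orc5 were not called. Without mutant RGC library 1 it called 15. It called 0 when WT library 1 or 2, or mutant RGC library 2 or 3, was left out. In those fits 34, 35, 35 and 36 of the 44 were higher at an unadjusted p under 0.05, and 0 lower. Over all 15277 tested genes, the same fits called 9, 8, 3 and 9. At an unadjusted p under 0.05 they had 2387, 2533, 2630 and 2712 genes higher and 2071, 2321, 3014 and 2909 lower. The calls over all genes were 6476 without WT library 3 and 2276 without mutant RGC library 1, so they moved with those of the 44. In each of the 6 fits that left out a library, 43 of the 44 log2 fold changes were above 0, and the median lay between 0.56 and 0.86.

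The second comparison, between the fractions of mutant retina, uses the same mutant RGC libraries as the first, so the values of the comparisons are not independent and are given side by side. In mutant non-RGCs, the median log2 fold change of the 44 genes against mutant RGCs was 0.26, or 1.20-fold, with a range from 0.11 to 0.74. Limma called 15 of 44 genes (34.1%) higher and 0 lower, against 5.07% higher and 12% lower among 15178 tested genes, whose median was 0.01. At an unadjusted p under 0.05, 34 were higher and 0 lower, against 1905 higher and 2919 lower of all 15178 tested genes. The authors' deposited table called 3 of the 44, the primase gene Prim1, Pold1 and Pole2, higher and 0 lower. It called 295 of its 25252 genes with an adjusted p higher (1.17%), low genes included. All 295 were among the 15178 genes tested here. Every non-RGC library lay above every mutant RGC library for 34 of the 44, against 17.2% of all tested genes. With libraries scaled to their total counts, limma called 32 of the 44, and the calls over all genes were 1462 higher and 1599 lower in place of 770 and 1820. A single fit to all 9 libraries called 4, namely Rfc3, Pold3, Prim1 and Pole2. Leaving out mutant RGC library 2 or non-RGC library 2 gave 2 calls, and leaving out mutant RGC library 3 or non-RGC library 1 gave 1. Prim1 was among the called genes in each. Over all 15178 tested genes, these fits called 587, 1243, 621 and 439.

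**Figure D2:**
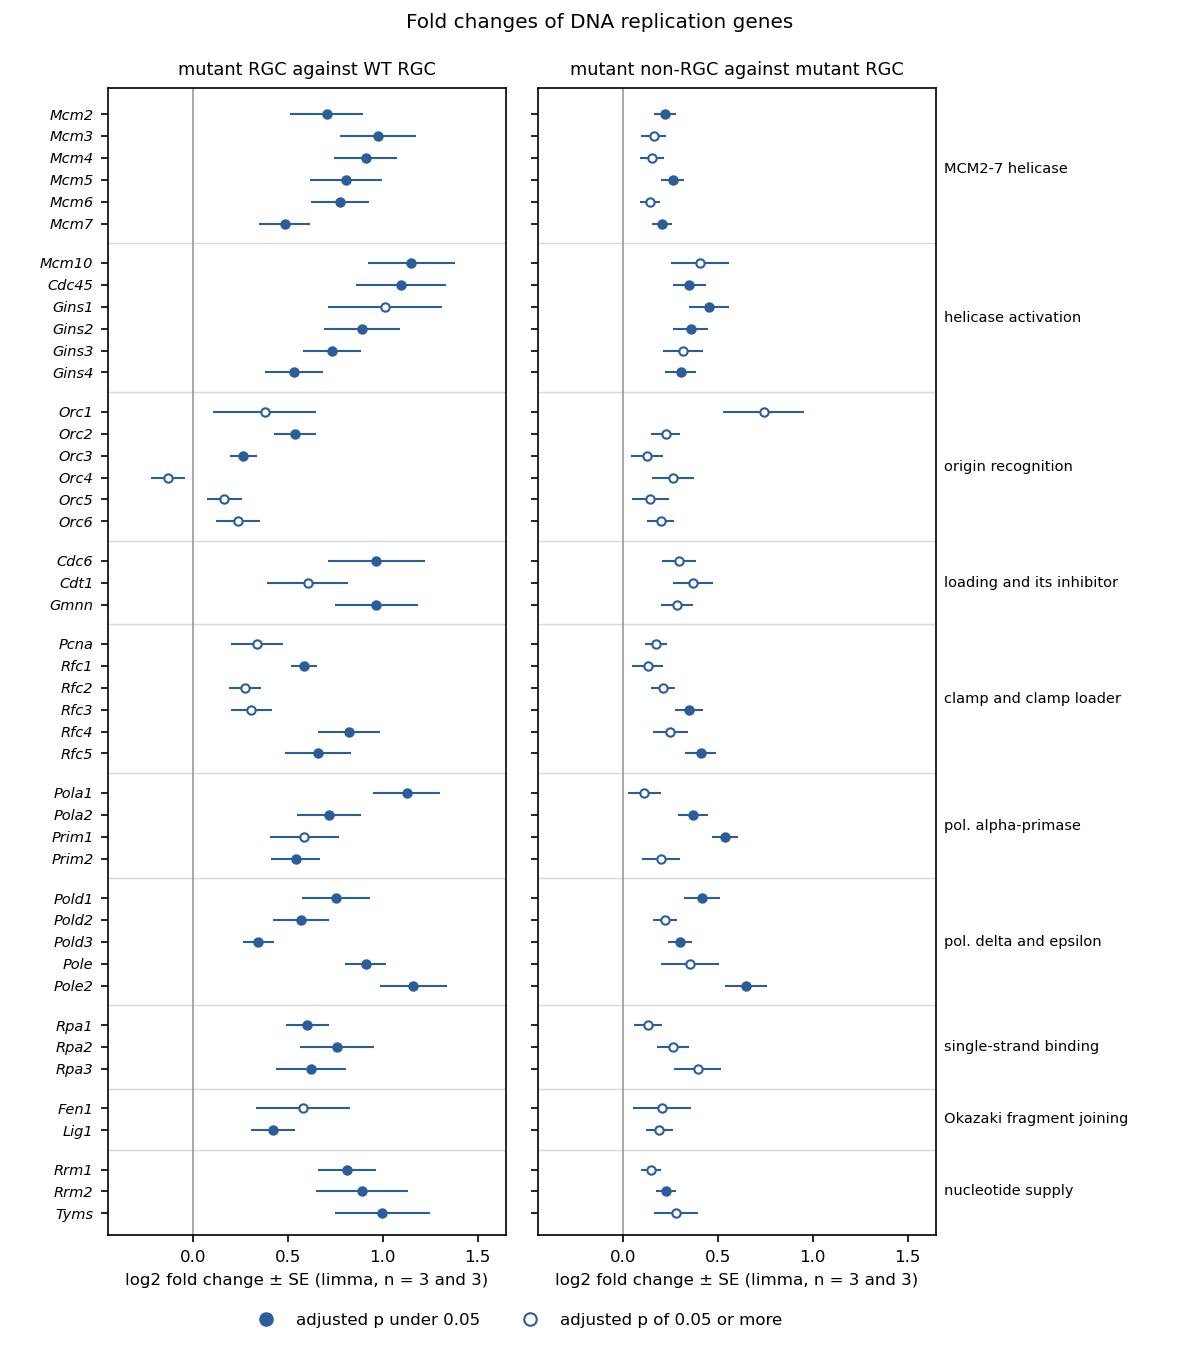
Log2 fold changes with their standard errors for each gene, in mutant RGCs against WT RGCs (left) and mutant non-RGCs against mutant RGCs (right), from 3 libraries a group. Filled points had a limma adjusted p under 0.05, 33 on the left and 15 on the right.

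The 6 subunits of the MCM2-7 helicase all rose in mutant RGCs, with a median log2 fold change of 0.79. Mcm4 had 828, 879 and 1283 normalised counts in WT RGCs, 1780.3, 1849 and 1752 in mutant RGCs and 2089, 1991 and 1907 in mutant non-RGCs. The mutant RGC libraries lay closely together and above all WT libraries, including the high WT library 3. Its log2 fold change was 0.91 (SE 0.17, limma adjusted p = 0.0244) between genotypes and 0.15 (SE 0.06, limma adjusted p = 0.14) between fractions. Mcm2 had 1177, 1286 and 1988 in WT RGCs, 2227, 2398 and 2266 in mutant RGCs and 2621, 2751 and 2669 in non-RGCs. WT library 3 came closest to the mutant RGCs, and the 3 groups did not overlap. Mcm2 differed by 0.70 (SE 0.19, limma adjusted p = 0.0422) between genotypes and by 0.22 (SE 0.06, limma adjusted p = 0.0418) between fractions. Mcm7, the subunit with the largest adjusted p of the 6, had 1267, 1275 and 1741 in WT RGCs, 1873, 1969 and 1936 in mutant RGCs and 2214, 2234 and 2213 in non-RGCs. Its log2 fold changes were 0.48 (SE 0.13, limma adjusted p = 0.0432) and 0.20 (SE 0.05, limma adjusted p = 0.0433). Mcm7 also hosts 3 microRNA genes and overlaps Ap4m1, and the sources used here give no strand setting for the counting. Mcm3, Mcm5 and Mcm6 rose by 0.98, 0.81 and 0.77 in mutant RGCs, and of these only Mcm5 passed between the fractions (log2 0.26, adjusted p = 0.0284).

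The factors that switch the loaded helicase on had a median of 0.95, and 5 of 6 rose in mutant RGCs. Mcm10, which helps to activate the helicase at origins, had 236, 221 and 392 normalised counts in WT RGCs, 551, 667 and 570.4 in mutant RGCs and 911, 843 and 637 in non-RGCs. Even the lowest mutant RGC library exceeded WT library 3. Its log2 fold change was 1.15 (SE 0.23, limma adjusted p = 0.0262) between genotypes and 0.41 (SE 0.15, limma adjusted p = 0.111) between fractions, where the non-RGC libraries were spread. Gins1, a subunit of the GINS complex, had 126, 168 and 294 in WT RGCs, 328, 404 and 360.2 in mutant RGCs and 489, 488 and 514 in non-RGCs. WT library 3 held a far higher level than WT library 1, and the groups did not overlap. Gins1 missed the threshold between genotypes at 1.01 (SE 0.30, limma adjusted p = 0.0503) and passed between fractions at 0.45 (SE 0.10, limma adjusted p = 0.0277). The authors' deposited table called Gins1 higher in mutant RGCs. Cdc45, the helicase partner that travels with the fork, rose by 1.09 in mutant RGCs and by 0.35 in non-RGCs. The other GINS subunit genes Gins2, Gins3 and Gins4 rose by 0.89, 0.73 and 0.53 in mutant RGCs, and Gins2 and Gins4 also passed between the fractions, at 0.36 and 0.30.

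The origin recognition complex, which marks the sites where helicases are loaded, had the lowest median log2 fold change of the roles between genotypes, 0.25, and 2 of its 6 subunit genes rose. Orc2 had 472, 494 and 596 normalised counts in WT RGCs, 800.4, 699 and 707 in mutant RGCs and 869, 814 and 893 in non-RGCs. Its groups did not overlap, and it rose by 0.54 (SE 0.11, limma adjusted p = 0.0268) in mutant RGCs. Orc3 rose by 0.26 (SE 0.07) by limma. Its call was lost under 10 of the alternative settings listed below, the most of the 44 genes between genotypes. The authors' deposited table was among these. Orc1, the largest subunit, had 40.3, 33.7 and 61.4 in WT RGCs, 60.1, 57.9 and 49.6 in mutant RGCs and 112, 99.8 and 74 in non-RGCs. WT library 3 was the highest of the 6 RGC libraries, and all 3 non-RGC libraries lay above them. Its log2 fold change was 0.38 (SE 0.27, limma adjusted p = 0.318) between genotypes and 0.74 (SE 0.21, limma adjusted p = 0.0527) between fractions, the latter the largest of the 44 genes, and neither passed. Orc4 had 586, 525 and 518 in WT RGCs, 527, 469 and 457 in mutant RGCs and 652, 505 and 592 in non-RGCs, and it was the only one of the 44 with a log2 fold change below 0 in mutant RGCs (log2 -0.13, adjusted p = 0.292). Orc5 and Orc6 had log2 fold changes of 0.16 and 0.24, and neither was called. Between the fractions 0 of 6 were called by limma or in the authors' deposited table, and 3 were higher at an unadjusted p under 0.05.

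Of the loading factors and their inhibitor, Cdc6 and Gmnn rose in mutant RGCs. Gmnn encodes geminin, which binds Cdt1 and stops origins from being loaded again. It had 219, 206 and 357 normalised counts in WT RGCs, 453, 497 and 500.3 in mutant RGCs and 599, 601 and 564 in non-RGCs. The groups did not overlap, and WT library 3 was again the nearest to the mutants. Geminin rose by 0.97 (SE 0.22, limma adjusted p = 0.0295) between genotypes, and its difference between fractions was 0.28 (SE 0.08, limma adjusted p = 0.0605). Cdt1, the loading factor itself, had 569, 558 and 924 in WT RGCs, 869, 1060.2 and 1041 in mutant RGCs and 1288, 1371 and 1170.4 in non-RGCs. WT library 3 lay above mutant RGC library 1, so the RGC groups overlapped. Its log2 fold changes were 0.60 (SE 0.21, limma adjusted p = 0.0734) and 0.37 (SE 0.11, limma adjusted p = 0.0548), and neither passed. With 1 library left out, the value between genotypes ran from 0.47 without WT library 2 (limma adjusted p = 0.205) to 0.84 without WT library 3, the high one (limma adjusted p = 0.00556), the only such fit that called Cdt1. Cdc6, which loads the helicase with Cdt1, rose by 0.97 (SE 0.26) in mutant RGCs.

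Of the sliding clamp and its loader, 3 of 6 genes rose in mutant RGCs. Pcna, the clamp that tethers polymerases to DNA, had 680.1, 709 and 959.9 normalised counts in WT RGCs, 963, 962 and 940.3 in mutant RGCs and 1089.8, 1048 and 1097 in non-RGCs. WT library 3 was level with the mutant RGCs, and the non-RGC libraries lay above all others. Pcna was not called, at 0.34 (SE 0.14, limma adjusted p = 0.102) between genotypes and 0.17 (SE 0.06, limma adjusted p = 0.0853) between fractions. With 1 library left out, its log2 fold change between genotypes ran from 0.25 without WT library 1 (limma adjusted p = 0.294) to 0.50 without WT library 3, the high one (limma adjusted p = 0.00302), the only such fit that called it. Its pseudogenes Pcna-ps1 and Pcna-ps2 are in the tables, and reads may be split between near-identical copies, so its level is uncertain. Rfc1, the large subunit of the clamp loader, had 843, 862 and 899 in WT RGCs, 1229, 1307 and 1274 in mutant RGCs and 1531, 1361 and 1286 in non-RGCs. Its WT libraries lay within a narrow range, with library 3 close to the others, and it rose by 0.58 (SE 0.07, limma adjusted p = 0.0215). Between the fractions Rfc1 differed by 0.13 (SE 0.08, limma adjusted p = 0.335). Among the small subunits, Rfc4 and Rfc5 rose in mutant RGCs (0.82 and 0.66), and Rfc2 and Rfc3 had log2 fold changes of 0.27 and 0.31 without a call. Between the fractions, Rfc3 and Rfc5 passed at 0.35 and 0.41.

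Polymerase alpha-primase starts each new strand with a short primer, and 3 of its 4 subunit genes rose in mutant RGCs. Pola1, the catalytic subunit, had 395, 417 and 613 normalised counts in WT RGCs, 1121, 944 and 925 in mutant RGCs and 1093, 1001 and 1129 in non-RGCs. All mutant RGC libraries lay well above WT library 3, and the mutant fractions overlapped. Pola1 rose by 1.13 (SE 0.18, limma adjusted p = 0.0238) between genotypes and differed by 0.11 (SE 0.09, limma adjusted p = 0.435) between fractions. Prim1, the catalytic primase subunit, had 397, 358 and 588 in WT RGCs, 652, 626 and 646 in mutant RGCs and 985, 910.4 and 906 in non-RGCs. WT library 3 lay close below the mutant RGCs, and the non-RGC libraries stood clear of both RGC groups. Prim1 was not called between genotypes, at 0.59 (SE 0.18, limma adjusted p = 0.0557), and rose between fractions by 0.54 (SE 0.07, limma adjusted p = 0.00711), the smallest adjusted p of the 44 genes in that comparison. The authors' deposited table called Prim1 higher in both comparisons. Pola2 rose by 0.72 in mutant RGCs and by 0.37 in non-RGCs, and Prim2 by 0.54 in mutant RGCs.

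Polymerases delta and epsilon are the main copying enzymes of the lagging and leading strands. The 5 of their subunit genes among the 44 all rose in mutant RGCs, with a median of 0.75. Their other subunit genes are in the second list described below. Of these, Pole3 rose by 0.50 (limma adjusted p = 0.0293). Pold4 (log2 -0.32, limma adjusted p = 0.169) and Pole4 (log2 0.09, limma adjusted p = 0.376) were not called. Pole, the catalytic subunit of polymerase epsilon, had 560.2, 584 and 706 normalised counts in WT RGCs, 1072, 1169 and 1141 in mutant RGCs and 1664, 1612 and 1109.7 in non-RGCs. The mutant RGCs lay above all WT libraries, and non-RGC library 3 fell within the range of the mutant RGCs. Pole rose by 0.91 (SE 0.11, limma adjusted p = 0.0215) between genotypes, and its difference between fractions was 0.35 (SE 0.15, limma adjusted p = 0.169). Pole2, its second subunit, had 80.6, 80.0 and 111 in WT RGCs, 209, 199.7 and 181 in mutant RGCs and 333, 298 and 294 in non-RGCs. The 3 groups were widely separated, and its mean in non-RGCs was 3.41 times that in WT RGCs, the highest such ratio of the 44. Pole2 rose by 1.16 (SE 0.18, limma adjusted p = 0.0238) and 0.65 (SE 0.11, limma adjusted p = 0.0126). Pold2, an accessory subunit of polymerase delta, had 643, 654 and 918 in WT RGCs, 1017, 1068 and 1081 in mutant RGCs and 1188, 1249 and 1255 in non-RGCs. It did not overlap between the groups and rose by 0.57 (SE 0.15, limma adjusted p = 0.0374) between genotypes and differed by 0.22 (SE 0.06, limma adjusted p = 0.0536) between fractions. Pold1, the catalytic subunit, and Pold3 rose by 0.75 and 0.34 in mutant RGCs and by 0.42 and 0.30 in non-RGCs. The authors' deposited table did not call Pold3 in either comparison.

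The 3 genes of replication protein A, which coats unwound single strands, rose in mutant RGCs. Between the fractions 0 were called by limma or in the authors' deposited table, and 2 were higher at an unadjusted p under 0.05. Rpa1, the large subunit, had 864, 919.9 and 1128 normalised counts in WT RGCs, 1478, 1476 and 1337 in mutant RGCs and 1562, 1464 and 1675 in non-RGCs. The mutant RGC libraries lay above the WT libraries and overlapped with the non-RGC libraries. Its log2 fold change was 0.60 (SE 0.11, limma adjusted p = 0.0246) between genotypes and 0.13 (SE 0.07, limma adjusted p = 0.269) between fractions. Rpa3, the small subunit, had 129, 124 and 179.7 in WT RGCs, 203, 234 and 206 in mutant RGCs and 275, 259 and 314 in non-RGCs. Its groups did not overlap, and it differed by 0.62 (SE 0.18, limma adjusted p = 0.0486) and 0.39 (SE 0.12, limma adjusted p = 0.0691). Rpa2 rose by 0.76 in mutant RGCs.

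Lig1, the ligase that seals lagging-strand fragments, had 1351, 1325 and 1682 normalised counts in WT RGCs, 1761, 1983 and 1922 in mutant RGCs and 2172, 2234 and 2063 in non-RGCs. WT library 3 lay close below the lowest mutant RGC library, and the groups did not overlap. Lig1 rose by 0.42 (SE 0.12, limma adjusted p = 0.0423) in mutant RGCs, a call the authors' deposited table does not share, and differed by 0.19 (SE 0.07, limma adjusted p = 0.118) between fractions. Fen1, the nuclease that trims the fragments before they are sealed, had 44.2, 53.7 and 80.0 in WT RGCs, 83.3, 84.9 and 84.7 in mutant RGCs and 89.5, 107 and 96.7 in non-RGCs. Its counts were low, and WT library 3 came near to the mutant RGCs. Its log2 fold changes of 0.58 (SE 0.25, limma adjusted p = 0.119) and 0.20 (SE 0.15, limma adjusted p = 0.414) did not pass.

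The 3 genes of deoxynucleotide supply rose in mutant RGCs, with a median of 0.89. Rrm1, the large subunit of ribonucleotide reductase, had 1184, 1338 and 1804 normalised counts in WT RGCs, 2443, 2508 and 2343 in mutant RGCs and 2663, 2643 and 2773 in non-RGCs. The groups did not overlap, and the mutant RGCs differed little among themselves. Rrm1 rose by 0.81 (SE 0.15, limma adjusted p = 0.0247) between genotypes and differed by 0.15 (SE 0.05, limma adjusted p = 0.11) between fractions. Rrm2, the small subunit made during S phase, had 572, 655 and 1143 in WT RGCs, 1361, 1370.1 and 1363 in mutant RGCs and 1621, 1594 and 1581 in non-RGCs. WT library 3 stood far above the other WT libraries and below every mutant library. Rrm2 rose by 0.89 (SE 0.24, limma adjusted p = 0.0422) and 0.23 (SE 0.05, limma adjusted p = 0.0293). Tyms, thymidylate synthase, rose by 1.00 (SE 0.25) in mutant RGCs, and its difference between fractions was 0.28.

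A second list of 81 gene symbols covered origin firing kinases, fork protection, checkpoint, chromatin assembly, lagging-strand processing and further nucleotide enzymes. Of these symbols, 77 were in the tables, the pseudogene Pcna-ps2 among them, and all 77 were tested. In mutant RGCs 48 of 77 (62.3%) rose and 0 fell by limma, with a median log2 fold change of 0.52. Of all 15277 tested genes, limma called 13.7% higher and 12.3% lower. At an unadjusted p under 0.05, 60 of the 77 were higher and 1 lower, against 3456 higher and 3416 lower of all tested genes. The authors' deposited table called 42 of the 77 higher and 0 lower, against 1374 higher and 1627 lower of all tested genes. When WT library 1 or 2, or mutant RGC library 2 or 3, was left out, limma called 0 of the 77, with 51, 51, 49 and 52 higher at an unadjusted p under 0.05. Over all 15277 tested genes, these fits called 9, 8, 3 and 9. Without mutant RGC library 1 the count was 30 of the 77, and 2276 over all genes. Among the largest increases were those of Hells, a chromatin remodelling ATPase gene (1.23), the exonuclease gene Exo1 (1.18), Dtl, which directs the destruction of Cdt1 (1.15), and Fam111a (1.14). Fam111a, a Pcna-binding protease gene, had 257, 295 and 309 normalised counts in WT RGCs and 682, 608 and 561 in mutant RGCs, and its WT library 3 lay near the other WT libraries.

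Between the fractions, limma called 20 of the 77 genes (26.0%) higher and 1 lower in non-RGCs, with a median of 0.28. Of all 15178 tested genes, it called 5.07% higher and 12% lower. The authors' deposited table called 295 higher and 1318 lower of all tested genes, and 8 higher and 0 lower of the 77. The largest increases were in the helicase gene Recql4 (0.77), the nuclease and helicase gene Dna2 (0.67), Chtf18 of an alternative clamp loader (0.64), the thymidine kinase gene Tk1 (0.51), the origin firing kinase gene Cdc7 (0.51) and Mtbp, whose product acts in origin firing (0.49). Recql4 had 219, 182 and 282 in WT RGCs, 244, 320.1 and 299 in mutant RGCs and 554, 563 and 372 in non-RGCs, so the RGC groups overlapped and the non-RGC libraries lay above both. Rrm2b, the ribonucleotide reductase subunit that p53 induces and that works outside S phase, went the other way. It had 406, 434 and 329.8 in WT RGCs, 363, 343 and 333 in mutant RGCs and 281, 266 and 274 in non-RGCs, and it fell between the fractions (-0.34, SE 0.09, limma adjusted p = 0.041). Leaving out a library moved the count of 21 calls to 1 without mutant RGC library 2 or 3 and to 4 without non-RGC library 2. It moved to 0 without non-RGC library 1, where 29 were higher and 1 lower at an unadjusted p under 0.05. Over all 15178 tested genes, these fits called 587, 621, 1243 and 439.

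By their medians, markers of dividing cells and of progenitors and Mueller glia moved with these genes, and ganglion cell markers moved the other way. Over all tested genes, limma called 13.7% higher and 12.3% lower between genotypes, and 5.07% higher and 12% lower between fractions. All 16 mitosis genes, such as Mki67 and Cdk1, rose in mutant RGCs with a median of 1.11. By limma, 11 of 16 were higher in non-RGCs with a median of 0.27. The authors' deposited table called all 16 higher in mutant RGCs and 2 of 16 higher in non-RGCs. Their summed normalised counts were 10768 to 19165 in WT RGCs, 26221 to 27184 in mutant RGCs and 32126 to 33676 in non-RGCs, with WT library 3 the highest WT library. Of 16 markers of progenitors and Mueller glia, 5 rose and 0 fell in mutant RGCs, with 15 higher and 0 lower at an unadjusted p under 0.05 and 8 higher and 0 lower in the authors' deposited table. Their sums were 20739 to 31783 in WT RGCs, where library 3 was the highest, 34489 to 35685 in mutant RGCs and 38713 to 39798 in non-RGCs. Of 19 ganglion cell markers, 8 fell in mutant RGCs and 13 in non-RGCs, with medians of -0.80 and -2.02. At an unadjusted p under 0.05, 18 were lower in each comparison, and the authors' deposited table called 13 and 17 lower. Their sums were 43159 to 51840, 20200 to 33659 and 5309 to 11851, with library 3 the lowest WT library. No marker in these lists was at 0 in all 3 libraries of a group. How far the share of dividing progenitors in each fraction sets the level of the replication genes was not tested, and in these bulk libraries fewer cells of a type and less RNA per cell cannot be told apart.

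**Figure D3:**
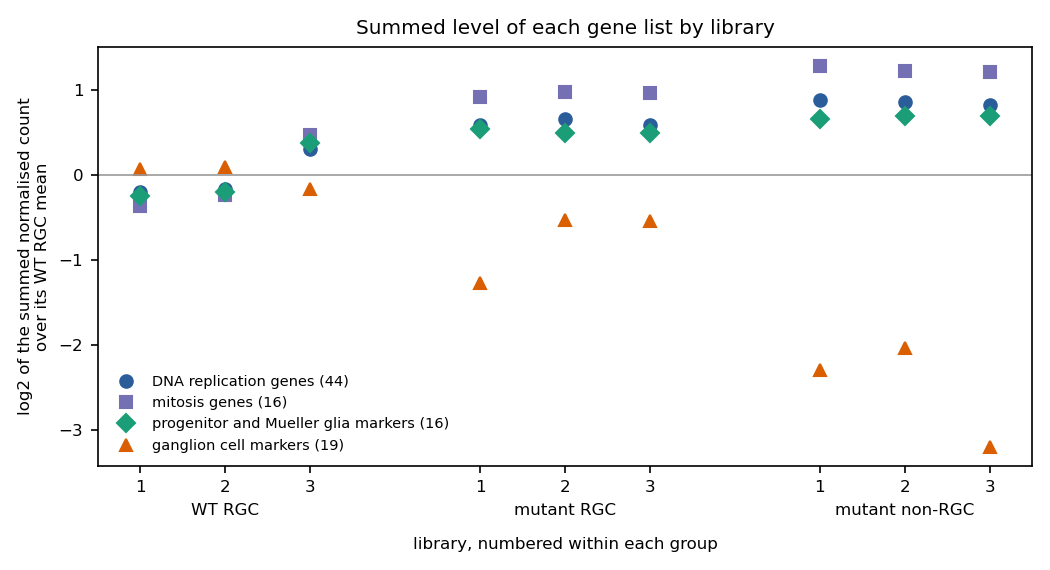
Log2 of the summed normalised count of each gene list over its WT RGC mean, for each of the 9 libraries. The replication genes, mitosis genes and progenitor and Mueller glia markers are lowest in WT libraries 1 and 2 and highest in mutant non-RGCs, and the ganglion cell markers run the other way.

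Markers of other cells were also present in the fractions. In mutant RGCs, 7 of 13 photoreceptor markers, 6 of 8 amacrine markers and 2 of 4 horizontal cell markers rose by limma, and 0 fell. The authors' deposited table called 5, 6 and 2 of them higher and 0 lower. The photoreceptor marker Rxrg and the horizontal cell marker Onecut1 had log2 fold changes below 0, -0.36 and -0.48, and neither was called. Microglia markers summed to 3225 to 4697 in WT RGCs, 2018 to 7520 in mutant RGCs and 51.9 to 68.8 in non-RGCs, and all 11 fell in non-RGCs. Mutant RGC library 1 had the highest microglia sum and the lowest ganglion cell sum of the mutant RGCs, and its sum over the 44 replication genes lay between those of the other 2. Of 9 markers of endothelium and pericytes, only Kdr rose by limma in mutant RGCs (0.53, SE 0.14, limma adjusted p = 0.0364), and 0 fell. Between the fractions, limma, an unadjusted p under 0.05 and the authors' deposited table each called 0 of the 9. Their median there was -1.31, and 2 of 9 were above 0. Their sum is mostly Kdr, so it says little of the other markers in this list. Kdr had 3593 ± 618 normalised counts in WT RGCs, 5039 ± 590.1 in mutant RGCs and 5565 ± 487 in non-RGCs (SD, n = 3 each). The part of these cells in the replication gene levels was not tested.

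The promoters of the 44 genes were searched because most of the genes moved together. RefSeq promoter windows on GRCm38.p6, from 250 bases before to 50 bases after an annotated start, were found for 36 of the 44 genes, in 44 windows. An E2F match was any of the strings TTTCCCGC, TTTGGCGC, TTTCGCGC and TTTGCCGC on either strand, and matches may overlap. Of the 44 windows, 15 (34.1%) held a match, each for a different gene, against 2.26% of all 32851 windows and 3.69% of the 14102 windows of tested genes. In the second list, 16 of 72 windows (22.2%) held one. The promoters below are those that show a match wholly before the start and outside any annotated gene span, 1 for each role that had one, taken from the gene with the smallest adjusted p. Each line gives 180 bases ending at the base before the start, read 5′ to 3′ on the strand of the gene, with the E2F matches in capitals. They lie at chr1:128359706-128359885 on the minus strand for Mcm6, a helicase subunit gene, at chr8:95633379-95633558 on the plus strand for Gins3, and at chr5:151651209-151651388 on the minus strand for Rfc3.

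Mcm6: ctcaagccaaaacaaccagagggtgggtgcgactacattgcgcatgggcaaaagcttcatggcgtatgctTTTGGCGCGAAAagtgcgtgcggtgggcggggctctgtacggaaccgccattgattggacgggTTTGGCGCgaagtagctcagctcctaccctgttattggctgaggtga

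Gins3: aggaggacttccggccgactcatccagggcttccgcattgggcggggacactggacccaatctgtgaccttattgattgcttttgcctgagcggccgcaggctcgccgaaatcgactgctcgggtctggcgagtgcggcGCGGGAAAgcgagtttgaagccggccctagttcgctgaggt

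Rfc3: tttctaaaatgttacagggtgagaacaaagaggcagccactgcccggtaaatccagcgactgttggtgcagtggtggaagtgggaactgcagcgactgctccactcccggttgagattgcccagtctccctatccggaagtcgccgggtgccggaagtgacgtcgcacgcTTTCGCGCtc

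Mcm6 had 3 matches here, of which 2 on opposite strands overlap to form the longer run of capitals. Mcm6 had 1246, 1263 and 1827 normalised counts in WT RGCs, 2329, 2432 and 2366 in mutant RGCs and 2613, 2651 and 2589.7 in non-RGCs, with every mutant library above every WT library. Gins3 had 145, 138 and 189.6 in WT RGCs, 255, 251 and 255 in mutant RGCs and 345, 315 and 291 in non-RGCs, and its WT libraries likewise lay below all mutant libraries. Rfc3, with a match next to its start, was called between the fractions and not between the genotypes. Of the 15 with a match, 12 rose (median 0.73, range 0.26 to 1.16), and of the 21 whose windows held none, 15 rose (median 0.62, range -0.13 to 1.15). The 8 genes without a window had a median of 0.90, and 6 of them rose. The CCAAT box, searched as CCAAT on either strand, was found in 25 of 44 windows (56.8%) against 37.4% of all windows and 37.0% of those of tested genes, and TTTGAA, the core of the cell cycle homology region, in 5 of 44 (11.4%) against 17.9% of all windows and 11.4% of those of tested genes. A match is a stretch of letters and not a measured binding site.

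**Figure D4:**
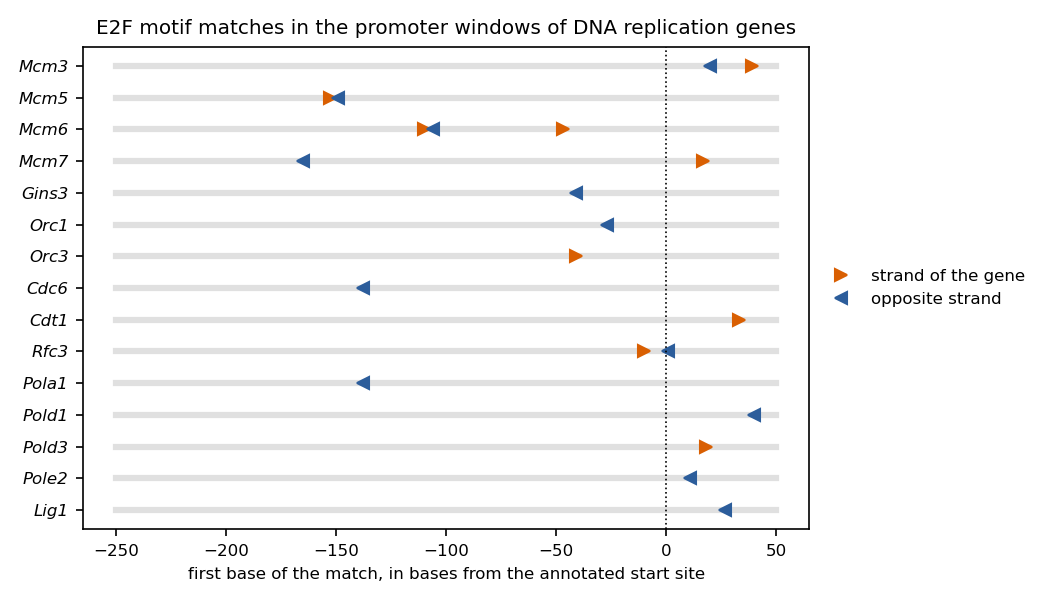
Position of each E2F match, as the distance in bases of its first base from the annotated start, in the windows of the 15 replication genes that held one. Arrows show the strand, and the matches lie on both sides of the start.

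Some of the replication genes start close to a neighbour that is read in the opposite direction. Within 1000 bases upstream of an annotated start, 12 of 36 replication genes (33.3%) had the start of a gene on the other strand, against 2085 of 10984 tested genes with a window (19%). Of the 12 neighbours, 8 were tested between genotypes. Limma called 0 of them higher and 0 lower, 2 had an unadjusted p under 0.05, and the authors' deposited table called 0. Their median log2 fold change was 0.08, with a range from -0.34 to 0.32. Rpa1 rose by 0.60 while Smyd4, whose start lies 50 bases away, had a log2 fold change of 0.08. Mcm7 rose by 0.48 while Ap4m1, 138 bases away, had 0.07. Orc3 and its neighbour Rars2, 15 bases away, had 0.26 and 0.32. Between the fractions, Mbd5, the neighbour of Orc4, was lower by limma (log2 -0.35, SE 0.10, adjusted p = 0.0468). Of the 44 replication genes, 19 overlap another RefSeq gene, counted without regard to strand. The sources used here give no strand setting, so where such a gene lies on the opposite strand, its reads cannot be told apart. The 44 genes lie on 14 chromosomes of GRCm38. Mcm4 is at chr16:15623897-15637400, Gmnn at chr13:24751845-24761937, Pcna at chr2:132249286-132253180, Prim1 at chr10:128015215-128030030 and Pole2 at chr12:69201773-69228205.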

How the data were processed

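RNA from the RGC fraction of WT and mutant pups and from the non-RGC fraction of mutant pups was measured. Per the submitters' processing notes, STAR 2.3, featureCounts, DESeq and FastQC were used on genome build mm10. By their names, the deposited tables rest on primary alignments with duplicates removed, which limits the counts of short abundant transcripts. The authors deposited, per the file headers, a mean normalised count for each group, a fold change as a ratio, its log2 value, and a p-value with its adjusted p-value. Each deposited mean is the average of 3 counts divided by their size factors. The 3 counts behind each mean were recovered by an integer search with a relative tolerance of 1e-09, accepted where the next best solution was at least 10 times worse. This gave 23539 of 23544 genes above 0 in WT RGCs (99.98%), 23954 of 23955 in mutant RGCs and all 23451 in mutant non-RGCs. The mutant RGC means of the second table were met by the counts from the first for all 23954 genes. Ank2, Reln, Adcy1, Map1b and Dync1h1 were not recovered in WT RGCs, and Map1b was also not recovered in mutant RGCs. Each was left out of the fits that use those libraries.

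A gene was tested where its mean normalised count in the 6 libraries compared reached 10, with limma 3.58.1 in R 4.3.3 on log2(normalised count + 1), with a variance trend, the authors' size factors and Benjamini-Hochberg adjustment over all tested genes. Fold changes on this scale understate changes of low genes. Printed normalised counts use median-of-ratios factors over all 9 libraries. The recovery and the fit were tested on simulated data. Alternatives were other pseudocounts (0.5 and 5), filters, scalings, voom weights, no variance trend, a fit to all 9 libraries, the authors' deposited adjusted p and leaving out each library. Chromatin samples and WT non-RGC samples were not analysed here.

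The genes, lists, motifs and marker lists were chosen with earlier results of these data known. Values in every library are given, in each role, for the called gene with the smallest and the gene with the largest adjusted p between genotypes, for any gene called lower, and for Pcna, Mcm2 and Gmnn. Orc4, Pole2, Mcm6, Gins3, Fam111a, Recql4 and Kdr were added after their values were seen. Of the second list, the 6 largest called changes of each comparison and every gene called against the majority are named. Pold4, Pole3 and Pole4 are named beside the other subunit genes of their polymerases. Some results under this rule are not reported here. Promoter windows and gene positions are RefSeq's on GRCm38.p6, and all 44 genes matched by symbol.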

Additional observations from a re-analysis of the deposited data

How the results depend on the processing

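Between the genotypes, the 33 replication genes called became 16 of 44 without a variance trend, and 0 to 41 when a library was left out. For the second list of 77 genes, 48 calls became 25 without a variance trend and 0 to 57 when a library was left out, and for all genes 3971 calls became 2112 and 3 to 6476. Between the fractions, the 15 replication genes called became 9 with no filter on low values, 32 with total-count scaling, 5 without a variance trend, 4 in a fit to all 9 libraries and 3 by the authors' deposited adjusted p, and 1 to 15 when a library was left out. For the second list, 21 calls became 35 with total-count scaling, 11 without a variance trend, 6 in the fit to all 9 libraries and 8 by the authors' deposited adjusted p, and 0 to 25 when a library was left out. For all genes, 2590 calls became 1614 without a variance trend and 1635 by the authors' deposited adjusted p, and 439 to 3396 when a library was left out. Fewer libraries enter a fit that leaves one out; otherwise the cause was not tested. Where a group is left with 2 libraries, limma pools the spread over both groups. The direction of each of the 44 genes was the same under all of these alternatives in both comparisons. Pseudocounts, the stricter filter and voom weights kept each count of replication genes within 1.5 times. No paired analysis was possible because the recovered libraries cannot be tied to the sample numbers in the labels.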
